A study of Mus musculus with 8 samples.

Results

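The cells described here carried transcripts of Pitx1 together with a posterior Hox or Cdx gene in day 5 embryoid bodies of the library labelled wild type (WT). A cell was taken as a member when at most 15% of its unique molecular identifiers (UMIs, counts of single captured transcripts) were mitochondrial, when it held at least 1 UMI of Pitx1 and at least 1 UMI in 1 or more of Hoxc8, Hoxc9, Hoxd9 and Cdx2, and when it held fewer than 2 UMIs of Lum. The rule picked 494 of the 4392 WT cells that passed the mitochondrial limit, which is 11.2% (exact Clopper-Pearson 95% interval 10.3 to 12.2), out of 7589 such cells in both libraries. The members were thus chosen by measured values, the UMIs of Pitx1, Hoxc8, Hoxc9, Hoxd9, Cdx2 and Lum, so those 6 genes are described below and support nothing.

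The cells came from an E14 mouse embryonic stem cell line with a fluorescent reporter at Nkx2-5, a cardiac transcription factor gene. The line was kept on mitomycin-treated mouse embryonic fibroblast feeders and was then differentiated without leukemia inhibitory factor as hanging-drop embryoid bodies, and the study asked how loss of TET proteins alters differentiation towards the heart. The series has 1 single-cell RNA library of a Tet triple knockout (labelled TKO) and 1 of WT cells, both at day 5 and untreated, and 6 pull-downs of 5-hydroxymethylcytosine from WT cells that were not analysed here. Each library is 1 sample with no replicate, cells are not replicates, and no test between groups was possible. All intervals are exact 95% intervals and cover counting error only, and the labels do not say how many embryoid bodies were pooled.

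Depth per cell, as the median, was 9138 UMIs and 2731.5 detected genes in members, against 7703 UMIs and 2400.5 genes in the 3898 other WT cells, and the sums were 4911645 and 32617535 UMIs. Requiring UMIs of named genes favours deep cells, so levels are given as summed UMIs of a gene per 1000000 summed UMIs of the same cells (CPM), and shares of cells were taken after each cell was thinned to 4000 UMIs. Median mitochondrial shares were 3.32% in members and 3.46% in other WT cells, and median shares of ribosomal protein transcripts were 31.5% and 31.2%. Tet1 stood at 22.8 CPM in the library labelled TKO and at 12.3 CPM in WT, Tet2 at 4.60 and 6.82 CPM, and Tet3 at 20.3 and 29.2 CPM. Counts over whole genes do not show whether the deleted exons were transcribed, so they do not check the genotype. The 2 libraries shared 21 cell barcodes.

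Pitx1 is a paired-type homeobox gene known from the hindlimb field, where its product acts upstream of Tbx4, and from the jaw and pituitary. Hox genes lie in 4 clusters (A to D), and paralogs with higher numbers are switched on later and more posteriorly in the embryo. Cdx2 encodes a caudal-type homeobox factor that activates Hox genes in the posterior body and is also expressed in gut epithelium. Lum encodes lumican, a small proteoglycan of collagen matrix, and its limit left out 67 cells that met the rest of the rule.

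In the 494 members Pitx1 ranged from 1 to 11 UMIs per cell with a median of 2. In 188 of them the call rested on a single Pitx1 UMI, and 186 held 3 or more. Of the posterior genes, Cdx2 was counted in 260 members (52.6%), Hoxd9 in 235 (47.6%), Hoxc8 in 182 (36.8%) and Hoxc9 in 128 (25.9%). Only 1 of these 4 genes was seen in 266 members, 2 in 156, 3 in 61 and all 4 in 11. The most frequent make-ups were Cdx2 alone in 97 members, Hoxd9 alone in 86, Hoxc8 alone in 58 and Hoxd9 with Cdx2 in 54. A single UMI of Lum was present in 71 members.

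The genes of the rule were also counted together at equal depth, as a description. After thinning to 4000 UMIs, Pitx1 was counted in 10 of 14 cells with 3 or more of the posterior genes (71.4%, 41.9 to 91.6), in 51.8% (42.2 to 61.2) of 114 cells with 2, in 36.2% (31.9 to 40.7) of 472 cells with 1, and in 9.13% (8.18 to 10.1) of 3419 cells with none. In the other direction a posterior gene was counted in 43.5% of the thinned cells with Pitx1 and in 10.4% of those without it. Median depths before thinning were between 7437 and 8499.5 UMIs in all of these classes.

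Applied to the library labelled TKO, the rule found 7 of 3197 cells (0.219%, 0.0881 to 0.451), against 494 of 4392 in WT. Pitx1 was counted in 23 of the TKO-labelled cells (0.719%) and in 944 WT cells (21.5%), while any of the 4 posterior genes was counted in 162 TKO-labelled cells (5.07%) and 995 WT cells (22.7%). With the rule applied after thinning to 4000 UMIs, 2 of 3007 TKO-labelled cells (0.0665%) and 228 of 4019 WT cells (5.67%) met it. The median depth was higher in the library labelled TKO, at 9679 UMIs, than in WT, at 7849.5.

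The label of mesoderm was checked against marker genes. At 4000 UMIs, Hand1, a transcription factor of lateral and extraembryonic mesoderm, was counted in 90.0% of members (87.0 to 92.6), against 72.8% of other WT cells and 17.8% of globin-rich cells, which stand for blood and should lack it. Hand1 does not set members apart from the cells most like them. It was counted in 89.4% of cells with Pitx1 and no posterior gene and 91.0% of those left out by the Lum limit. In cells with a posterior gene and no Pitx1 it was counted in 71.3%. Epcam, an epithelial adhesion gene, was counted in 1.69% of members and 5.27% of other WT cells. No UMI of T, the Brachyury gene of primitive streak and notochord, of Msgn1, a presomitic factor, or of Wnt3a was found in any member. For T at 4000 UMIs, 0 of 472 members allow a share of up to 0.636% by a floor of 3 counts (exact upper limit 0.778%), which limits cells with a T UMI and not cells that express it. T was also rare outside the members, at 4 of 3547 other WT cells (0.113%), so its absence does not check the label. Of the fixed markers, Twist1 was not in the rule, and it is described below.

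The members formed no group of their own when the WT cells were clustered without the 6 genes of the rule. Cluster 4, led by Rgs5, Rspo3 and Prtg, held 145 members, which were 31.9% of its 455 cells. Cluster 2, led by Myl7, Myl4 and Sgce, held 130 members, or 24.1% of 540 cells, and cluster 3, led by cell division genes such as Cenpf, held 81, or 15.0% of 540 cells. Together with 44 members in cluster 5 these made up most of the set, while cluster 1, led by the matrix genes Spon2, Postn and Col3a1, held 37 members among 925 cells (4.00%). No member fell in clusters 7, 11 and 13, which were led by Cited4 and Gata1, by adult globin genes, and by the white blood cell genes Spi1 and Plek.

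**Figure D1:**
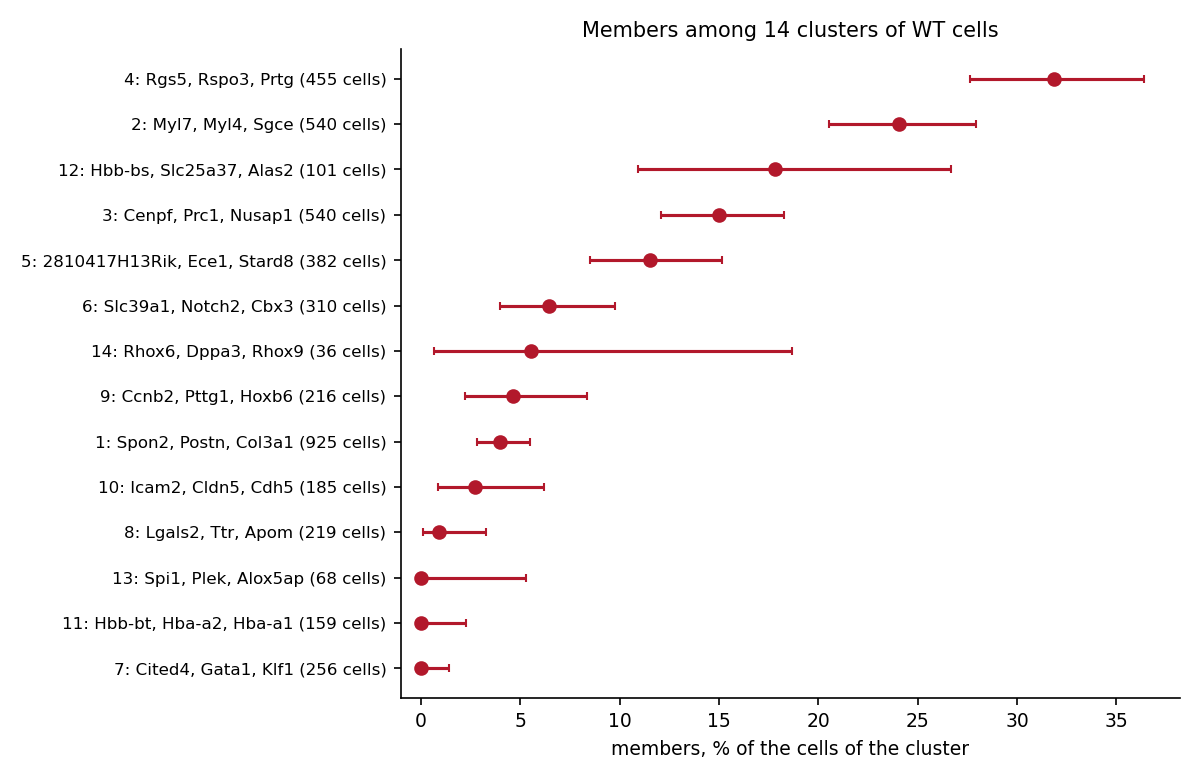
Share of each WT cluster that met the rule, in percent of the cells of the cluster (points, with exact 95% intervals), for 14 clusters named by number, 3 leading genes and cell number. Clusters 4 and 2 stand highest at 31.9% and 24.1%, and clusters 7, 11 and 13 are at 0.

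Cluster 12, led by the globin gene Hbb-bs and Slc25a37, held 18 members among 101 cells and had the highest median doublet score, 0.246. Among members 9 cells (1.82%) had 1% or more of their UMIs in globin genes, against 477 of the other WT cells (12.2%). The blood list was lower in members by 2-fold or more at all 11 of its measured genes, where 6.66% of all genes were. It summed to 1361 CPM in members against 8826 CPM in other WT cells, with Spi1 and Ptprc at 0 in members. Hbb-bh1, an embryonic globin, was still counted in 45.8% of members and 51.9% of other WT cells at 4000 UMIs, and free RNA of abundant transcripts can give such UMIs in cells of other kinds. Its part in the results was not tested.

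Against the other WT cells, 12915 genes had at least 20 UMIs in both sets together. Of these, 265 (2.05%) were higher in members by 2-fold or more and 860 (6.66%) were lower, and the median log2 ratio of all of them was 0.0058. The rule sets this contrast, so the counts are a description. Members hold far fewer UMIs than the other WT cells, and 41 of the 265 genes would not have reached 20 UMIs at an even level in both sets. The genes with the highest ratios outside the rule, among those with at least 20 CPM and no ribosomal, mitochondrial or model genes, were Hoxb5os, Hoxc6, Greb1, Twist1, Sh3bgr, Krt13, Bves, Crabp2, Dcaf12l1, Prickle1, Sgce, Cntfr, Wnk3, Tenm4 and Pdlim4, with ratios between 2.57 and 4.27.

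Twist1, a helix-loop-helix factor of mesenchyme and limb bud, stood at 49.7 CPM in members (43.6 to 56.3) and 12.2 CPM in other WT cells (11.1 to 13.5), a ratio of 4.06 (3.45 to 4.77). Its 244 UMIs in members came from 149 cells, and the 5 cells with most held 9.43% of them, so no few cells made up the sum. At 4000 UMIs it was counted in 16.9% of members (13.7 to 20.6), 4.82% of other WT cells (4.14 to 5.58) and 1.37% of globin-rich cells, and without thinning in 30.2%, 8.44% and 3.29%. The globin-rich cells were deeper, with a median of 10425.5 UMIs before thinning against 9284.5 in members.

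Greb1, known as an oestrogen-responsive gene, stood at 85.5 CPM in members (77.5 to 94.1) and 20.8 CPM in other WT cells (19.3 to 22.4), a ratio of 4.11 (3.63 to 4.65). It was counted in 251 members, and at 4000 UMIs in 29.2% of members (25.2 to 33.6), against 7.47% of other WT cells and 1.60% of globin-rich cells. Sgce, which encodes epsilon-sarcoglycan and is expressed from the paternal allele, stood at 133 CPM in members and 46.4 CPM in other WT cells. Crabp2, a carrier of retinoic acid, stood at 30.3 CPM in members and 10.3 CPM in other WT cells. Prickle1, a planar polarity gene, stood at 28.5 and 9.93 CPM in the same order. Cntfr, a cytokine receptor chain, stood at 66.8 CPM in members and 25.5 CPM in other WT cells, and Pdlim4, an actin-associated PDZ and LIM protein, at 101 and 39.4 CPM. Each of the 15 genes was spread over at least 85 members.

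**Figure D2:**
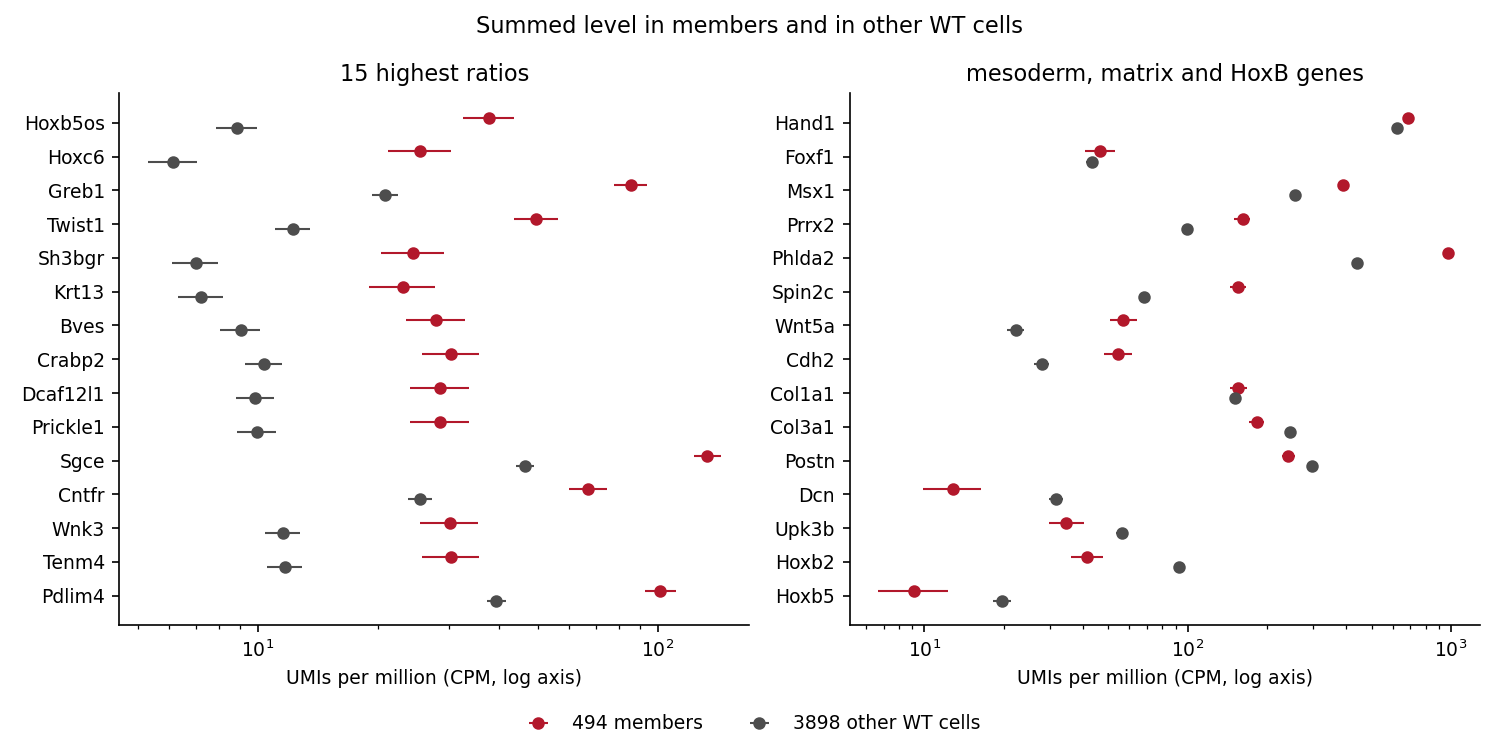
Level in CPM on a log axis for the 15 genes with the highest ratios (left) and for 15 genes of mesoderm, matrix and the HoxB cluster (right), in members (red) and other WT cells (grey), with exact Poisson 95% intervals. Twist1 and Greb1 lie about as far apart as Hoxc6, while Hand1, at 685 and 625 CPM, and Col1a1, at 156 and 151 CPM, nearly coincide and Hoxb2 and Dcn are lower in members.

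The Hox genes that the rule did not use differed by cluster and by position. Among the 14 Hox genes 9 to 13 of the list, 7 outside the rule had at least 20 UMIs in both sets together. Of these, Hoxa11, Hoxa13, Hoxc10 and Hoxd10 reached that minimum only through their UMIs in members, so they had to come out higher, and nothing is read from a count of the 7. These genes were rare and their ratios have wide intervals. Summed, the Hox genes 9 to 13 outside the rule gave 186 UMIs or 37.9 CPM in members (32.6 to 43.7) and 139 UMIs or 4.26 CPM in other WT cells (3.58 to 5.03).

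Hoxa10, a gene of the posterior trunk and hindlimb, had 54 UMIs in 36 members (11.0 CPM) and 41 UMIs in other WT cells (1.26 CPM), a ratio of 8.75 (5.72 to 13.5). Hoxc10, an abdominal-B type gene of lumbar levels and hindlimb, had 35 UMIs in 31 members and 11 in other WT cells, a ratio of 21.1 (10.5 to 46.1). At 4000 UMIs Hoxc10 was counted in 3.18% of members and 0.141% of other WT cells. Hoxa11 had 15 UMIs in members and 5 in other WT cells, Hoxa13 had 14 and 6, and Hoxd10 had 19 and 11, for ratios of 19.9, 15.5 and 11.5. For Hoxd11 there were 11 UMIs in 9 members and 0 in other WT cells, which is under the 20 needed to be measured. With the other cells put at a floor of 3 counts its ratio would be 24.3, which is not a lower limit. Hoxc11 and Hoxd13 had 5 UMIs each in members, Hoxc13 had 2, and Hoxc12, Hoxd12 and Hoxb13 had none. Hoxa9 and Hoxb9 had the smallest ratios of the group, at 3.60 (1.68 to 7.35) and 3.08 (1.47 to 6.15).

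Among Hox genes 5 to 8, Hoxa7 was at 6.52 CPM in members and 0.491 CPM in other WT cells, a ratio of 13.3 (7.08 to 25.9). Hoxc6 was at 25.4 and 6.13 CPM, and Hoxd8 at 8.75 and 2.24 CPM. These 3 of 8 measured genes were higher by 2-fold or more, where 2.05% of all genes were. Hoxa7 reached 20 UMIs only through members. The HoxB genes of this range went otherwise, since Hoxb7 had a ratio of 1.98 (1.57 to 2.49), Hoxb8 of 1.64, Hoxb6 of 1.04 (0.900 to 1.19) and Hoxb5 of 0.466 (0.337 to 0.631).

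Among Hox genes 1 to 4, the early ones, 3 of 8 measured genes (Hoxd4, Hoxc4 and Hoxd1) were higher and 2 (Hoxb1 and Hoxb2) lower by 2-fold, Hoxd1 barely so at 2.03 (1.45 to 2.82). The shares over all genes were 2.05% higher and 6.66% lower. Hoxd4 stood at 12.6 CPM in members and 2.36 CPM in other WT cells, and Hoxc4 at 4.07 and 0.828 CPM. Hoxb2 stood at 41.5 CPM in members (36.0 to 47.6) and 93.0 CPM in other WT cells (89.7 to 96.4), a ratio of 0.447. Hoxb4, at 20.8 and 41.5 CPM, had a ratio of 0.501. Hoxb1, with 1 UMI in members and 23 in other WT cells, is too rare for its ratio to be read. At 4000 UMIs Hoxb2 was counted in 12.9% of members (10.0 to 16.3) and 27.4% of other WT cells (25.9 to 28.9).

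Summed over each cluster without the genes of the rule, HoxA stood at 34.4 CPM in members and 13.1 CPM in other WT cells, HoxC at 39.5 and 8.52 CPM and HoxD at 38.7 and 10.1 CPM. HoxB stood at 183 CPM in members and 240 CPM in other WT cells, a ratio of 0.761 (0.710 to 0.816). Within HoxB the ratio was 0.489 for genes 1 to 4, 1.15 for genes 5 to 8 and 2.98 for genes 9 to 13, which rested on 13 UMIs in members. In HoxA it was 0.820 for genes 1 to 4, 7.83 for 5 to 8 and 8.39 for 9 to 13. HoxD was higher in members at every stretch, with 3.13, 3.91 and 13.7.

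**Figure D3:**
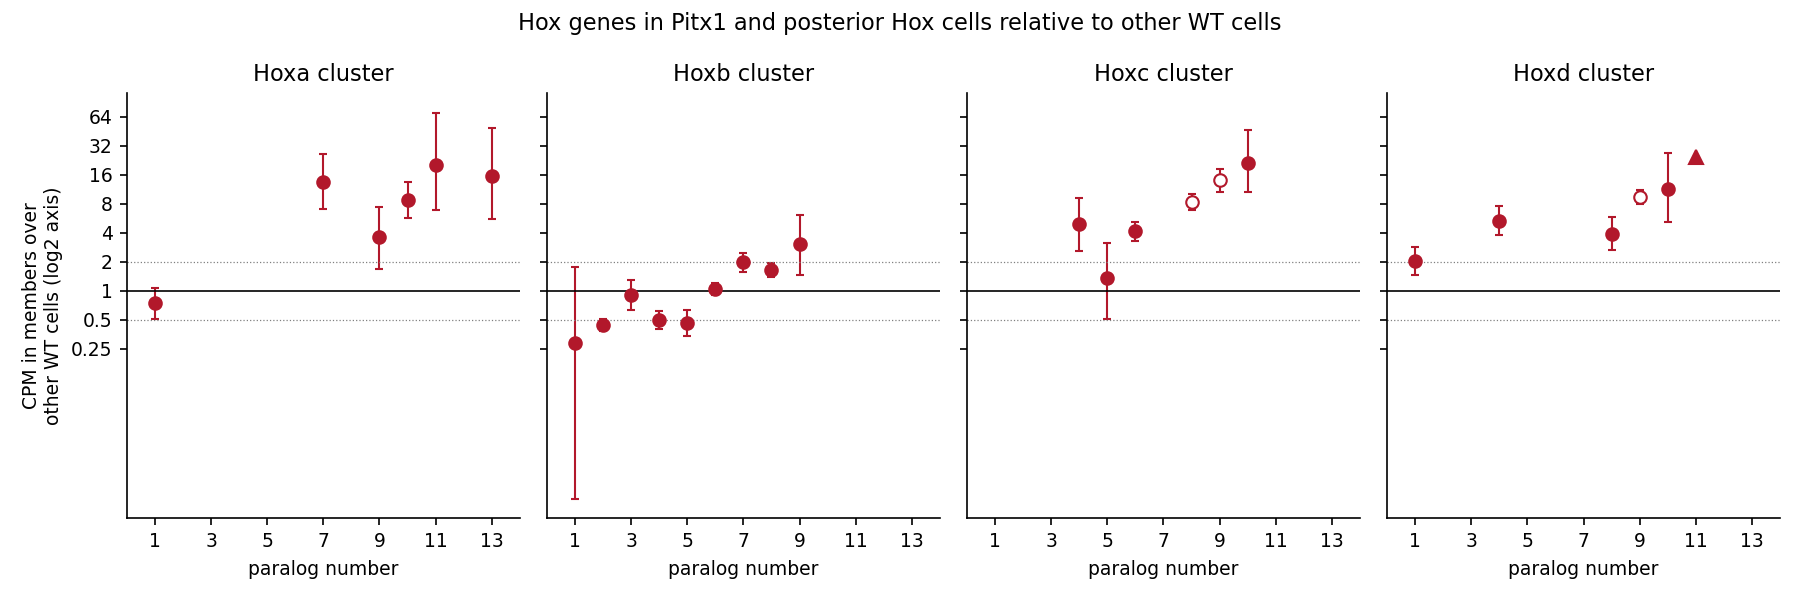
Ratio of CPM in members over other WT cells on a log2 axis, by paralog number in each Hox cluster, for genes with at least 20 UMIs in both sets together, with exact 95% intervals. Open points are genes of the rule, and dotted lines mark 2-fold, with HoxB genes 2, 4 and 5 at or near the lower one. The triangle is Hoxd11, which is shown although it is under the minimum of 20 UMIs. It had no UMI in other WT cells, so its place is not a measured ratio.

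Antisense transcripts lie within the clusters, and whether counting used the strand is not given in the sources used here. Hoxb5os stood at 37.9 CPM in members and 8.86 CPM in other WT cells, a ratio of 4.27, while Hoxb5 was lower. Hoxb3os had a ratio of 0.409 and Hoxd3os1 of 1.90. Reads from a gene and its antisense partner cannot be told apart on this information, and neighbouring Hox transcripts can share reads.

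The windows searched ran from 250 bases before to 50 bases after the start site (RefSeq, GRCm38.p6). Short motifs of the CDX and PITX factor families were sought, since many of the genes high in members are Hox genes. Motifs of Hox factors, which are also in the rule, were not searched. Of 31 genes looked up, the Hox and Cdx genes and the 15 named above that were higher by 2-fold or more, 21 had a window and they had 32 windows in all. The CDX words TTTATG and TTTATA, on either strand, were in 10 of these windows (31.2%), in 8 genes, and in 22.8% of all 32851 windows in the table. Windows of 1 gene can overlap, and those of Cntfr and of Dcaf12l1 with a word count the same word again, so nothing is read from the difference of these shares. The PITX word TAATCC was in 2 of the 32 windows, in Krt13 and Prickle1, and in 7.06% of all windows. A match is a description of letters only, and which factor binds a word, if any, was not tested. The 250 bases before the start are shown for 4 genes with a CDX word and for Hoxd9, a gene of the rule with none, and capitals mark the words. They are Hoxa7 (chr6:52218574-52218823, minus strand), Hoxd4 (chr2:74721728-74721977, plus strand), Hoxa10 (chr6:52234940-52235189, minus strand), Twist1 (chr12:33957421-33957670, plus strand) and Hoxd9 (chr2:74697513-74697762, plus strand).
Hoxa7: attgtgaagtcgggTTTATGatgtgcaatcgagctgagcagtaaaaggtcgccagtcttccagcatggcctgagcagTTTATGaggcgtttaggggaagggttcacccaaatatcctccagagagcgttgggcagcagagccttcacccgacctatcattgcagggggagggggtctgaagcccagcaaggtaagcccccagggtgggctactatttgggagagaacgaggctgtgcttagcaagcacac
Hoxd4: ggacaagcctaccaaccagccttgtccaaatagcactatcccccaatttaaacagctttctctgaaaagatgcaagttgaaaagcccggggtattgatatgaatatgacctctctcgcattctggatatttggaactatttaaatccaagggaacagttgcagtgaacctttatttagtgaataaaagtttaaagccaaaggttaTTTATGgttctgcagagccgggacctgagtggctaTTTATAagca
Hoxa10: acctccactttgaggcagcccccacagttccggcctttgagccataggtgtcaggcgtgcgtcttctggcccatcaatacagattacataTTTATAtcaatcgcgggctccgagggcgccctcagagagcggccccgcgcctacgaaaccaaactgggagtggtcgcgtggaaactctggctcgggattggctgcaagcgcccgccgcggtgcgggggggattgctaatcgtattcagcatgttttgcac
Twist1: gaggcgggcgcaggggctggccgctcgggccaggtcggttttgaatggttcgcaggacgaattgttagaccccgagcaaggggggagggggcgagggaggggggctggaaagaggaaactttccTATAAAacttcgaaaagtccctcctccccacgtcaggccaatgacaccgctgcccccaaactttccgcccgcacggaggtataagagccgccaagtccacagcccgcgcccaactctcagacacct
Hoxd9: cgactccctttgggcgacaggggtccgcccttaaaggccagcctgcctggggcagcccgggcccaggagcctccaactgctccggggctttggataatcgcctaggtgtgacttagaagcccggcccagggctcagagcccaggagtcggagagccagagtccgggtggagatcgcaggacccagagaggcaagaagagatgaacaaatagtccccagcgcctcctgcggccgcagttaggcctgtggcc
The Hoxa7 window holds TTTATG at both -236 and -173 from the start. Hoxd4 has TTTATG at -45 and TTTATA at -10. Hoxa10 has TTTATA at -160 in the window shown, and the other of its 2 windows holds no word. Twist1 holds TTTATA on the other strand at -126, printed as TATAAA.

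Other genes of the posterior body varied one by one. In the list of Cdx and trunk genes, 4 of 7 measured genes were higher by 2-fold or more, namely Greb1, Evx1, Wnt5a and Wnt5b, and 1 was lower. Over all genes, 2.05% were higher and 6.66% lower. Evx1, a homeobox gene of the posterior streak, had 39 UMIs in 33 members and 42 in other WT cells, a ratio of 6.17 (3.88 to 9.77). Wnt5a, a ligand that guides elongation of the axis and limb, stood at 57.0 CPM in members and 22.2 CPM in other WT cells. Cdx1 and Cdx4 had no UMI in members. In the tail bud list only Nkx1-2 of 7 measured genes was higher by 2-fold, with 48 UMIs in 47 members (9.77 CPM) and 40 in other WT cells (1.23 CPM), and at 4000 UMIs in 4.45% and 0.507% of cells. Nkx1-2 is a homeobox gene known from the caudal epiblast. Of the paraxial mesoderm list none of 6 measured genes was higher by 2-fold, and Tcf15, an early somite factor, had 2 UMIs in members and 117 in other WT cells.

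The hindlimb and limb field genes differed one from another. In the posterior lateral and hindlimb list the genes higher by 2-fold were Hoxa10 and the 4 rare Hox genes that were measured only through their UMIs in members, and no gene was lower. Isl1, needed for the hindlimb field, was at 10.4 CPM in members and 14.5 CPM in other WT cells. Fgf10, the limb bud growth factor, was at 10.6 and 12.9 CPM, and Tbx3 at 23.6 and 26.0 CPM. Tbx4 had 6 UMIs in members and 5 in other WT cells, which is under the 20 needed to be measured. In the limb field list 1 of 16 genes reached 2-fold, where 2.05% of all genes were higher. This was Prrx1, with 33 UMIs in 24 members and 43 in other WT cells, a ratio of 5.10 (3.14 to 8.21). It depended on the rule and the cells compared, at 2.43 with a Hox gene required, 2.63 with at least 2 posterior UMIs and 2.66 against the other cells of clusters 2, 3 and 4. In the 97 members with Cdx2 and no Hox gene of the rule it stood at 17.3 CPM, from 16 UMIs. In the 234 with a Hox gene and no Cdx2 it stood at 5.09 CPM, and in the 163 with both at 3.29 CPM. Prrx2, Meis1, Msx1, Irx3 and Meis2 were between 1.48 and 1.62, and Tbx5, a forelimb and heart factor, had a ratio of 1.43 (0.896 to 2.19).

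Of the list of allantois and extraembryonic mesoderm, 5 of 14 measured genes were higher by 2-fold and 1 lower, against 2.05% and 6.66% of all genes. Of the 5, Hoxa11 and Hoxa13 were measured only through members. The others were Hoxa10, which is also in the hindlimb list, Phlda2, an imprinted gene that limits placental growth, at 973 CPM in members and 439 CPM in other WT cells, and Spin2c, a spindlin family gene, at 155 and 68.3 CPM. Cited1, a transcriptional coactivator, was lower, at 4.48 and 19.04 CPM. Lateral plate genes were close to even, with Tcf21 and Foxf2 as the 2 of 14 that reached 2-fold. Foxf1 stood at 46.6 CPM in members and 43.2 CPM in other WT cells, Gata6 at 121 and 100 CPM, and Tcf21 at 5.70 and 2.61 CPM.

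Of 22 measured matrix genes none was higher by 2-fold and 2, Dcn and Tnc, were lower, where 2.05% of all genes were higher and 6.66% lower. The ratios lay between 0.198 and 1.55, with a median log2 ratio of -0.25. The rule removes cells rich in Lum, another matrix gene, so these levels are not independent of it. Postn, an adhesion protein of embryonic mesenchyme, stood at 241 CPM in members and 297 CPM in other WT cells, Col3a1 at 183 and 245 CPM, and Dcn, another small proteoglycan, at 12.8 and 31.6 CPM. Col1a2 stood higher, at 305 and 196 CPM, while Col1a1 was even. Of 13 genes of the mesenchymal transition Twist1 alone reached 2-fold. Its paralog Twist2 had a ratio of 1.29 (1.16 to 1.43), Snai2 of 0.990, and Cdh2, which encodes N-cadherin, of 1.94. Of 8 measured genes of mesothelium, the lining of body cavities, Tcf21 and Aldh1a2 were higher by 2-fold and Upk1b was lower, with a ratio of 0.306. Upk3b had a ratio of 0.616, Krt19 of 1.34 and Podxl of 0.998, and the median log2 ratio of the list was -0.10. The feeder cell list summed to 718 CPM in members and 690 CPM in other WT cells, with Fap and Lox at 0 in members, and its part in the result was not tested.

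Among signalling genes, Bmp7 stood at 11.0 CPM in members and 4.14 CPM in other WT cells, and Bmp2 at 43.0 and 20.6 CPM, as 2 of 16 BMP genes that were higher by 2-fold. The BMP antagonist Nog, at 1.63 and 7.42 CPM, and the target gene Id4 were among 3 that were lower. The shares over all genes were 2.05% higher and 6.66% lower, for this and the next lists. Of 19 Wnt genes, 3 were higher, Wnt5a, Wnt5b and the secreted modulator Sfrp2, and 3 were lower, among them the inhibitors Dkk1, at 3.87 and 9.99 CPM, and Sfrp5, at 0.611 and 4.60 CPM. Of 9 retinoid genes, Crabp2, Rdh10, which oxidises retinol, and Aldh1a2, which makes retinoic acid, were higher by 2-fold and Aldh1a3, another enzyme that makes retinoic acid, was lower with 1 UMI in members and 21 in other WT cells. The median log2 ratio of the list was -0.04, and Aldh1a1, Cyp26b1 and Stra6 had no UMI in members. Rdh10 stood at 9.77 CPM in members and 3.92 CPM in other WT cells, and Aldh1a2 had 11 UMIs in each set, so it reached 20 only through its UMIs in members. None of 13 FGF genes and none of 15 cell division genes reached 2-fold in either direction. Of 15 imprinted genes, only Sgce and Phlda2 reached 2-fold.

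Most of the 10 lowest ratios belonged to genes that lead clusters with few or no members, while Emb, at 0.103, leads none. Apom, S100g, Spink1, Ttr and Cldn6, all among the leading genes of cluster 8, had ratios between 0.0494 and 0.0772. Hbb-y and Klf1 of red blood cells had ratios of 0.0821 and 0.108. Of the other lists, 6 of 12 endothelial, 6 of 9 extraembryonic endoderm, 7 of 9 definitive endoderm, 5 of 9 pluripotency, 4 of 10 cardiac contractile and 2 of 3 measured neural genes were lower by 2-fold, and none was higher. Over all genes, 6.66% were lower and 2.05% higher. Cells with UMIs of at least 3 endothelial genes made up 10.1% of members (50 of 494) and 10.6% of other WT cells (412 of 3898). Endothelial genes near an even level were Kdr, a receptor also found in early mesoderm, at a ratio of 1.17, and Tek, at 0.841. Some of the lower genes were counted in few members. Cdh5, an endothelial cadherin, had its 10 UMIs in 4 members, and 74 of the 95 UMIs of Myl7, an atrial myosin chain, were in 1 member.

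When the members were set only against the other cells of clusters 2, 3 and 4, a choice made after the clusters were seen, 8 of the 10 lowest genes came out above 1. Ttr then had a ratio of 2.71 and Klf1 of 2.90. The high genes stayed above 1, with Twist1 at 2.46, Greb1 at 3.11, Hoxc6 at 3.15, Hoxa10 at 4.04 and Hoxc10 at 8.15, while others were under 2-fold, with Phlda2 at 1.48, Spin2c at 1.54, Bmp2 at 1.57, Sh3bgr at 1.68, Tenm4 at 1.70, Bves at 1.72, Wnt5a at 1.81 and Cntfr at 1.96. Hoxb2 was at 0.361 in this comparison. In sums of thinned counts Hoxa9 came to 1.67 and Bmp7 to 1.74.

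The members were also set against the nearest kinds of WT cells. Cells with Pitx1 but none of the 4 posterior genes numbered 310, cells with a posterior gene but no Pitx1 numbered 365, both with Lum under 2 UMIs, and 67 cells met the rule but for 2 or more UMIs of Lum. Against the 310 cells, 154 of 10296 genes (1.5%) were higher in members by 2-fold and 146 (1.42%) lower. Against the 365 cells, 192 of 10597 (1.81%) were higher and 398 (3.76%) lower. Against the 67 cells, 484 of 9813 (4.93%) were higher and 249 (2.54%) lower.

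Twist1 stood at 49.7 CPM in members, 33.1 CPM in the cells with Pitx1 only, 15.5 CPM in those with a posterior gene only, and 18.0 CPM in the Lum-rich cells. Greb1 stood at 85.5 CPM in members and at 35.8, 31.6 and 37.2 CPM in the same sets. At 4000 UMIs Twist1 was counted in 12.4% (8.80 to 16.8), 7.10% (4.60 to 10.4) and 10.4% (4.30 to 20.3) of these 3 sets, with intervals that overlap one another. In members it was counted in 16.9% (13.7 to 20.6). That interval overlaps those of the cells with Pitx1 only and of the Lum-rich cells. For Greb1 the intervals of the 3 sets overlap one another and lie below that of members, at 25.2 to 33.6. The summed Hox genes 9 to 13 outside the rule were at 37.9 CPM in members, 19.8 CPM with Pitx1 only (14.8 to 26.1), 10.1 CPM with a posterior gene only, 4.80 CPM in the Lum-rich cells and 4.26 CPM in all other WT cells. Nkx1-2, at 9.77 CPM in members, was at 2.33, 4.17 and 3.60 CPM in the 3 sets. Bmp7 stood at 11.0 CPM in members and at 1.95 CPM with Pitx1 only and 7.15 CPM with a posterior gene only, and Rdh10 at 9.77, 2.33 and 7.74 CPM. Other genes high in members were about as frequent in a neighbouring set at 4000 UMIs. Crabp2 was counted in 9.53% of members and 8.87% of cells with Pitx1 only, and Bmp2 in 16.1% and 14.2%. Krt13 was counted in 6.99% of members and 10.4% of Lum-rich cells, and Wnt5a in 20.6% and 19.4%. Against cells with Pitx1 only, none of 15 limb field, 10 allantois, 17 Wnt and 15 imprinted genes was higher by 2-fold. In the same lists 0, 2, 3 and 1 genes were lower. Of 6 Cdx and trunk genes, 2 were higher and 0 lower. Over all genes of this contrast 1.5% were higher and 1.42% lower, so nothing is read from a list with none higher.

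Hoxb2 stood at 41.5 CPM in members, 50.0 CPM in cells with a posterior gene only, 55.2 CPM in the Lum-rich cells and 82.1 CPM in cells with Pitx1 only. At 4000 UMIs it was counted in 12.9%, 15.7%, 22.4% (13.1 to 34.2) and 26.2% of these sets. The cells with a posterior gene only were of mixed kinds. Epcam stood at 3.87 CPM in members and 69.7 CPM in those cells, and Ttr at 22.4 and 911 CPM. Postn stood at 241 CPM in members, 346 CPM with Pitx1 only, 180 CPM with a posterior gene only and 539 CPM in the Lum-rich cells.

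**Figure D4:**
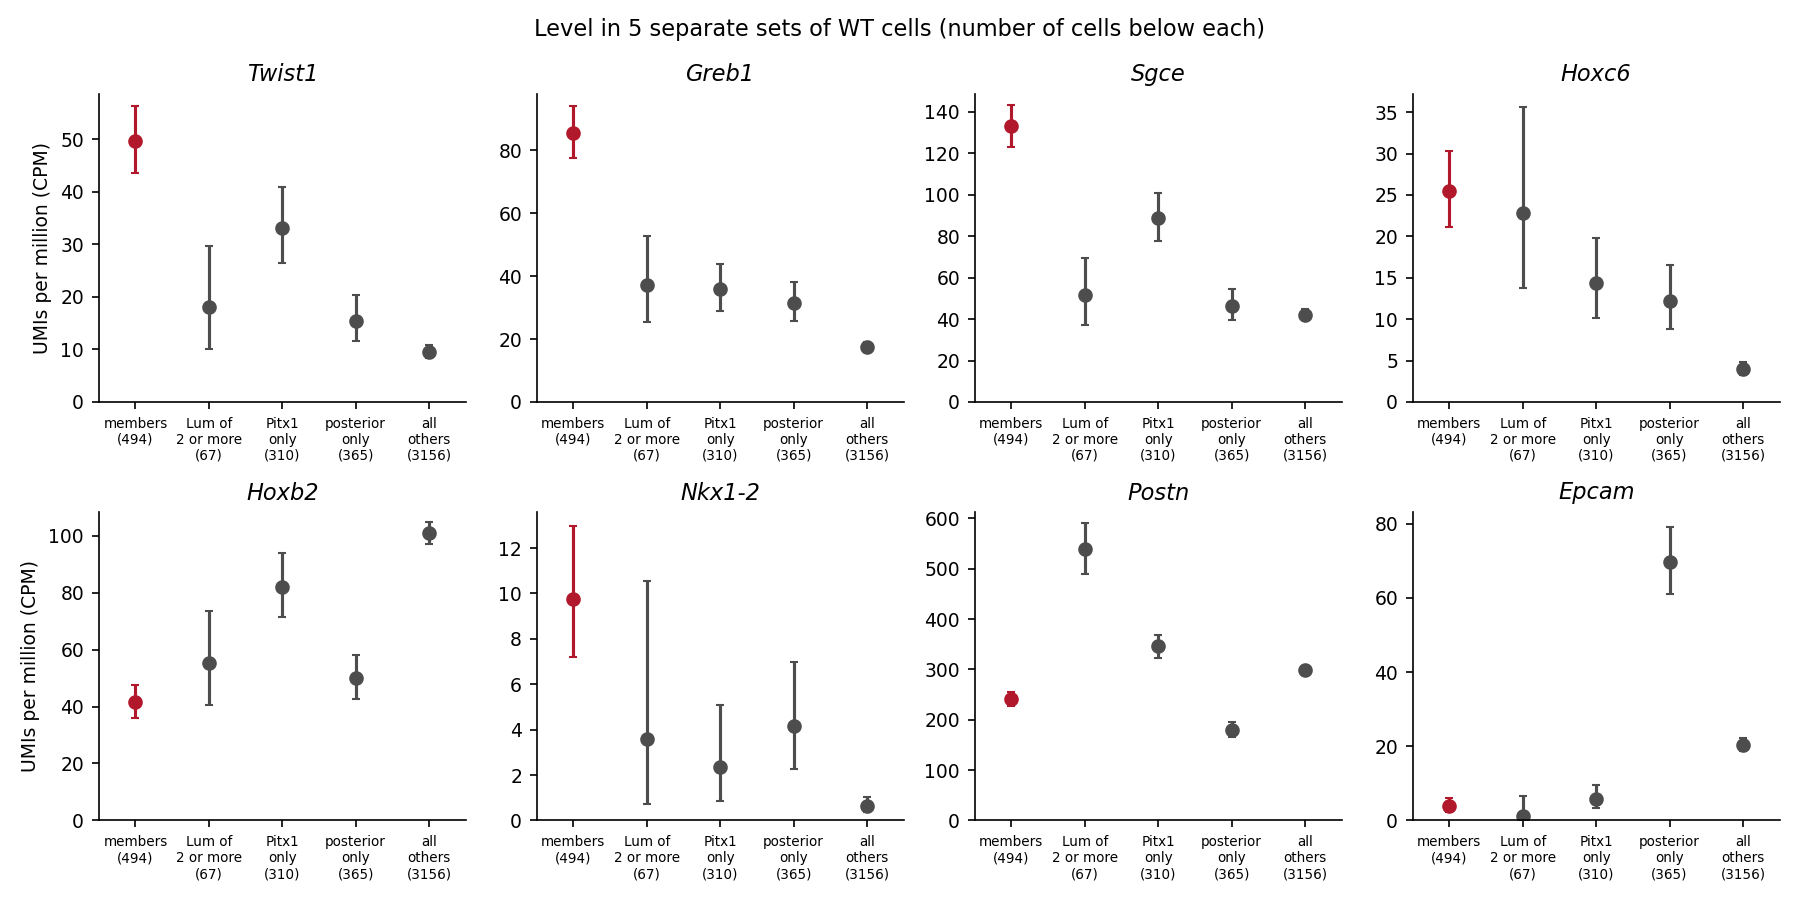
Level of 8 genes in CPM in 5 WT sets that do not overlap, members first (red), then cells that met the rule but for Lum, cells with Pitx1 only, cells with a posterior gene only and all others (grey), with exact Poisson 95% intervals. Twist1, Greb1, Sgce and Nkx1-2 are highest in members, Hoxb2 is lowest there, and Epcam stands out in cells with a posterior gene only.

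The members also varied among themselves. Members with 1, 2 and 3 or more UMIs of Pitx1 had Twist1 at 21.3, 51.2 and 73.7 CPM, with intervals of 15.0 to 29.3, 39.1 to 65.7 and 62.2 to 86.7. Greb1 was at 63.3, 83.0 and 107 CPM in these classes, and the summed Hox genes 9 to 13 at 18.98, 33.5 and 57.0 CPM. Hoxb2 ran the other way, at 51.8, 41.1 and 32.8 CPM, with intervals that overlap between neighbours. Hand1 was at 711, 703 and 651 CPM. The classes had median depths of 8556, 9022.5 and 9845.5 UMIs, and CPM divides by depth.

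By the number of posterior genes held (1, 2, and 3 or 4), the summed Hox genes 9 to 13 were at 22.4, 43.5 and 71.7 CPM, Twist1 at 43.6, 49.7 and 67.0 CPM, and Greb1 at 67.7, 99.4 and 111 CPM. For Twist1 the intervals of neighbouring classes overlap, while for the Hox genes 1 posterior gene and 2 do not, at 16.9 to 29.2 and 33.9 to 55.0. Hox genes of 1 cluster share regulatory DNA, so these values are not independent of the genes of the rule. Wnt5a was at 51.0, 54.1 and 80.0 CPM.

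**Figure D5:**
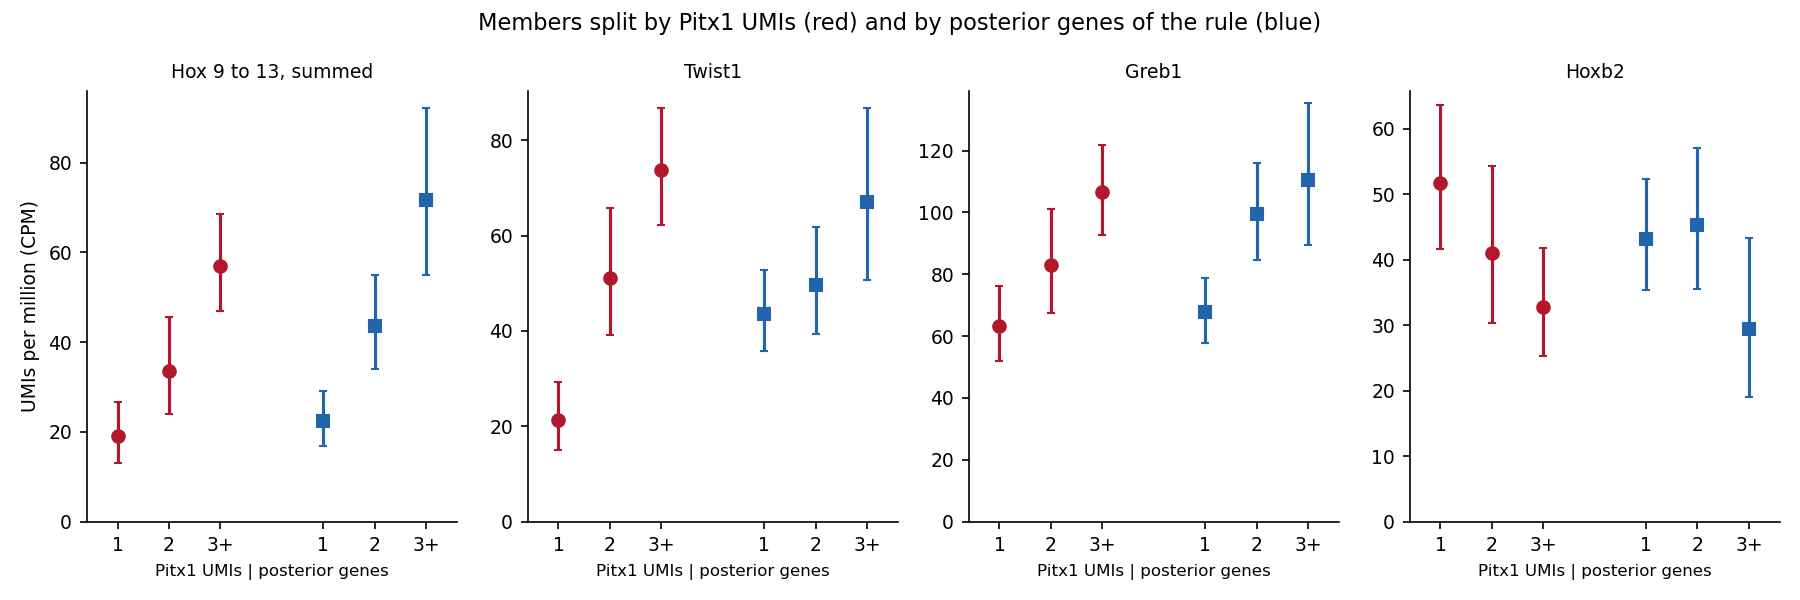
Level in CPM within members, by Pitx1 UMIs per cell (red circles: 1, 2, 3 or more) and by the number of posterior genes of the rule held (blue squares: 1, 2, 3 or more), with exact Poisson 95% intervals. The Hox genes 9 to 13, Twist1 and Greb1 climb to the right in both splits, and Hoxb2 is lowest in the last class of each.

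Members that met the rule through Cdx2 with a Hox gene (163 cells), Cdx2 alone (97 cells) or a Hox gene alone (234 cells) were not alike. Twist1 stood at 64.1 CPM, 57.2 CPM and 34.3 CPM in these classes, and Greb1 at 107, 82.0 and 69.0 CPM. Postn stood at 198 and 182 CPM in the classes with Cdx2 and at 303 CPM in that without, with an interval of 280 to 327. The Hox genes 9 to 13 were at 53.7 CPM with both and at 25.9 and 29.6 CPM with Cdx2 alone or a Hox gene alone, the last 2 with overlapping intervals.

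Cells just inside and just outside the limits of the rule are given as a description. The 423 members with no Lum had Postn at 216 CPM and Twist1 at 53.0 CPM, and the 71 members with 1 UMI of Lum had 361 and 34.0 CPM. The 31 cells outside with 2 UMIs of Lum had Postn at 556 CPM and Twist1 at 24.9 CPM, and the 36 with 3 or more had 526 and 12.7 CPM. The 188 members with 1 UMI of Pitx1 had Twist1 at 21.3 CPM and Greb1 at 63.3 CPM, against 15.5 and 31.6 CPM in the 365 cells with a posterior gene and no Pitx1. The 185 members with a single posterior UMI had Twist1 at 41.2 CPM and Greb1 at 68.3 CPM, against 33.1 and 35.8 CPM in the 310 cells with none. Twist1 intervals overlap at the Pitx1 limit, at 15.0 to 29.3 inside and 11.6 to 20.3 outside. They also overlap at the posterior limit, at 32.1 to 52.1 inside and 26.4 to 40.9 outside. Those of Greb1 overlap at neither limit.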

How the data were processed

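For both single-cell libraries the authors deposited tables of raw counts, with genes in rows and cells in columns. The values are whole numbers and were read as UMIs. The submitters' processing notes name mm10 and Seurat 3 and assign them no role. The aligner, counting tool, chemistry and strand setting were not given in the sources. Low-count barcodes were not in the tables, where the lowest WT cell had 2396 UMIs. The table labelled TKO names 3224 barcodes for 3223 values a row, and 116 row names differ between the tables, so cells and rows were read by position. Cells over 15% mitochondrial UMIs were left out, 3 of 4395 in WT and 26 in TKO.

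From the counts, UMIs were summed per set of cells and divided by the set's total (CPM), with exact Poisson intervals, exact binomial intervals for ratios and exact Clopper-Pearson intervals for shares, at 95%. A gene was measured with at least 20 UMIs in both sets together, and a set at 0 was put at 3 counts. For shares, each cell was thinned to 4000 UMIs with a fixed seed, which left out 22 members and 351 other WT cells as too shallow. Globin-rich cells had 1% or more globin UMIs. Clustering of WT cells used scanpy 1.11.5 (10000 UMIs, 2000 variable genes, 30 components, 15 neighbours) and Leiden in igraph 0.11.9 at resolution 0.8, without the genes of the rule. Scrublet marked 3 WT cells (0.0683%) and is taken not to have worked, so doublets were not removed. Its median score was 0.0751 in members and 0.0734 in other WT cells. The scripts were tested on simulated data.

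The members and the 30 gene lists were chosen with earlier results of these data known. Named genes are those of the rule and markers, all Hox and Cdx genes seen in members, the 15 highest and 10 lowest ratios at 20 CPM or more, and up to 4 genes at either end of each list. A few others (such as Tbx4 and Col1a1) were chosen after their values were seen. Alternatives changed the rule, the depth, the minimum and the comparison cells.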

Additional observations from a re-analysis of the deposited data

How the results depend on the processing

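The number of members depends on the rule: it was 306 with at least 2 UMIs of Pitx1, 309 with at least 2 UMIs over the posterior genes and 228 with the rule applied at 4000 UMIs, and between 397 and 561 with a Hox gene required, other limits on Lum or mitochondrial share, or without high doublet scores or cluster 12. With no minimum beyond 1 UMI, 1005 genes were higher by 2-fold, where the minimum of 20 gave 265. Against the other cells of clusters 2, 3 and 4, a choice made after seeing the data, 199 were lower in place of 860. Against cells with a posterior gene and no Pitx1, thinned sums gave 250 lower genes in place of 398. At 6000 UMIs Twist1 was counted in 21.0% of members and 6.67% of other WT cells, and Greb1 in 38.6% and 11.7%. Of 70 genes followed over 14 settings, all 41 that were higher by 2-fold stayed above 1 in each setting and 28 stayed past 2-fold. Of 14 lower genes, 6 stayed below 1. Many of these genes were followed because of their ratios in the same cells, and the settings share members, so nothing is read from these counts. Hoxa7, Hoxa11, Hoxa13, Hoxc10, Hoxd10 and Aldh1a2, among the higher genes, were measured only through members. Reversals were seen for Hbb-y, at 1.72, and Klf1, at 1.17, when globin-rich and endothelial cells were left out of the other WT cells. Against clusters 2, 3 and 4 the ratios were 1.40 for Apom, 1.53 for S100g, 1.70 for Spink1, 2.71 for Ttr, 1.44 for Cited4, 1.80 for Hbb-y, 2.39 for Ctla2a and 2.90 for Klf1. In each case the set of cells compared was changed by construction. Hoxa9 came to 1.67 in thinned sums. No paired analysis was possible because each group has 1 library. Hox genes 9 to 13 outside the rule had at most 54 UMIs each in members, and there depth limits the ratios.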
